A study of Homo sapiens with 9 samples.

Results

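Cohesin, condensin and the SMC5/6 complex are rings built around a pair of SMC (structural maintenance of chromosomes) ATPases, and 10 of their genes are described here as RNA targets of the splicing factor SF3B1. The genes were listed by name, with earlier results of the same site list known. SMC1A, SMC3, RAD21, STAG1 and STAG2 code for cohesin subunits and NIPBL for the protein that loads cohesin onto DNA. SMC2 and SMC4 form the ATPase pair of condensin, and SMC5 and SMC6 that of the SMC5/6 complex. A binding site was counted for a gene when its centre lay within the RefSeq span of the gene on GRCh38 and on the strand of the gene. Of 96852 sites in the list, 446 (0.460%) were counted for the 10 genes, and each gene had at least 1.

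Cohesin holds sister chromatids together and extrudes loops of interphase DNA, condensin compacts chromosomes for mitosis, and the SMC5/6 complex acts in DNA repair and replication. STAG1 and STAG2 are alternative subunits of the same ring, and RAD21 is the kleisin that closes it. STAG2, RAD21, SMC1A and SMC3 are recurrently mutated in myeloid neoplasms, the diseases in which SF3B1 is also mutated. SF3B1 belongs to the U2 snRNP, the particle of the spliceosome that engages the branch point near the end of each intron, and it contacts the RNA on either side.

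The sites came from iCLIP, in which ultraviolet light (400 mJ/cm2 at 254 nm) links a protein to RNA in intact cells and sequencing of the immunoprecipitated RNA marks the linked nucleotides. The cells were K562, an established human leukaemia line. SF3B1 was precipitated from 3 samples of cells with both SF3B1 alleles unmutated (wt/wt) and from 2 samples of cells heterozygous for the K700E substitution (K700E/wt), both lines supplied by Horizon Discovery. U2AF2 was precipitated from 4 samples of wt/wt cells supplied by ATCC. The only table used here was 1 merged list of SF3B1 sites attached to the 3 wt/wt samples, so the other 6 samples were not analysed here.

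The list gives positions only. It has no value per replicate, no read number and a score of 0 for every site, so the depth is unknown and no comparison between samples could be tested. Its header describes sites reproduced by all replicates of either condition, whereas the labels attach it to wt/wt cells alone. RNA levels were not measured, and site numbers are therefore uncorrected for how strongly each gene is transcribed. The labels call the cells lymphoid, while K562 is generally described as a chronic myelogenous leukaemia line with erythroid features. Of the erythroid genes reported here, TFRC had 121 sites and GATA1 had 6, while HBG1, HBG2 and HBZ had 0. The lymphocyte genes CD3E and MS4A1 had 0 sites each.

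The 10 genes, listed with earlier results known, had a median of 36.5 sites, against 7 among protein-coding genes that had a site. At least 10 sites were found in 9 of the 10 genes, the exception being STAG1. Among all 20050 protein-coding genes, 38.0% had at least 1 site and 14.8% had at least 10, and among the 7609 genes with a site, 39.0% had at least 10. Per length, the median of the 10 genes was 0.497 sites per kb of gene span, against 0.199 in protein-coding genes with a site. On the opposite strand the 10 spans held 0 sites beside these 446, which allows a share of up to 0.673%. Annotated antisense neighbours, such as STAG2-AS1 over the start of STAG2 and GEN1 over the start of SMC6, thus contributed no site to these spans.

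SMC4 had the most sites, 91 (95% exact Poisson interval 73.3 to 112). NIPBL followed with 89 (71.5 to 110) and STAG2 with 74 (58.1 to 92.9). SMC6 had 47 (34.5 to 62.5), RAD21 had 41 (29.4 to 55.6), SMC5 had 32 (21.9 to 45.2) and SMC3 had 31 (21.1 to 44.0). The lowest numbers were 23 in SMC1A (14.6 to 34.5), 11 in SMC2 (5.49 to 19.7) and 7 in STAG1 (2.81 to 14.4). The intervals cover counting error only, and they are too narrow to the extent that sites of one cluster are not independent. The intervals of any neighbours in this order overlapped, while those of SMC4, NIPBL and STAG2 lay above those of RAD21 and of every gene below it.

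**Figure D1:**
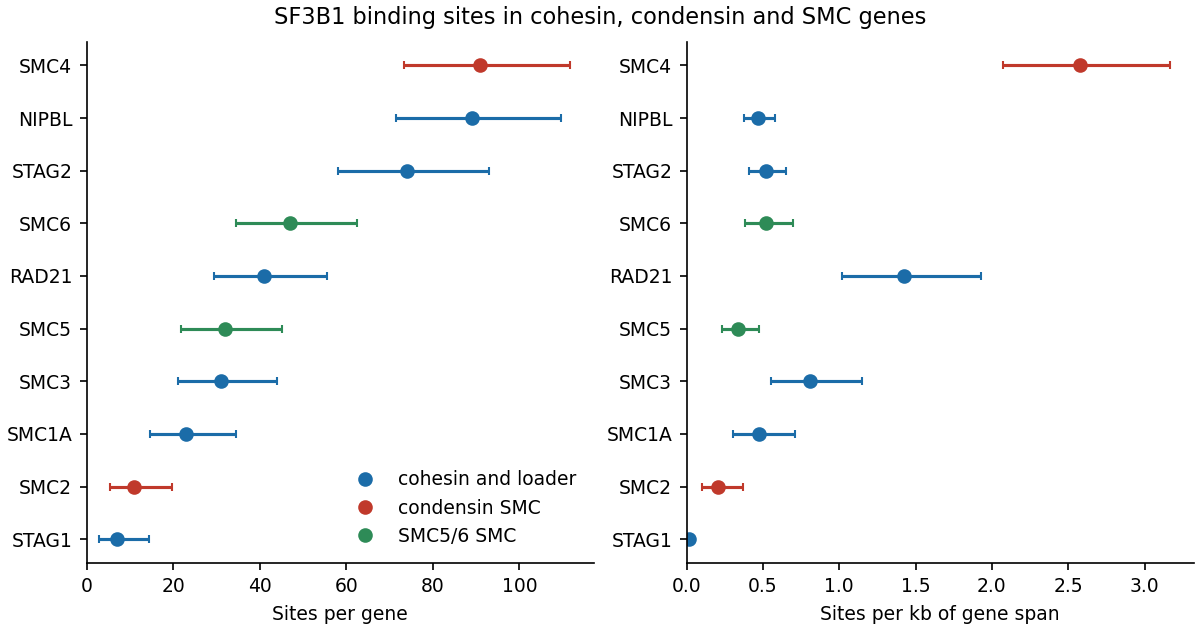
Number of SF3B1 sites in each gene (left) and number per kb of gene span (right), with 95% exact Poisson intervals that cover counting error only. SMC4, NIPBL and STAG2 lead by number, with 91, 89 and 74 sites, and SMC4 lies alone by density, at 2.58 sites per kb.

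The order changed when the length of the gene was taken into account. SMC4 had 2.58 sites per kb (interval 2.08 to 3.16), and its interval lay above that of RAD21, the next gene, with 1.42 sites per kb (1.02 to 1.93). SMC3 followed at 0.808 sites per kb. SMC6, STAG2, SMC1A and NIPBL were close to one another, at 0.522, 0.521, 0.473 and 0.469 sites per kb. SMC5 had 0.334 and SMC2 had 0.207 sites per kb. STAG1 stood lowest at 0.0168 sites per kb (0.00676 to 0.0347), and its interval lay below that of SMC2 (0.103 to 0.370).

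Gene length did not order the 10 genes by their number of sites. Spearman's rho between length and sites was -0.13 over the 10 genes (Pearson's r of the log2 values -0.24), against 0.23 over 7609 protein-coding genes with a site (Pearson's r 0.23). STAG1, the longest of the 10 with the fewest sites, and SMC4, the next to shortest with the most, set the sign: rho was 0.20 without STAG1, 0.13 without SMC4 and 0.62 without both. These correlations describe 1 merged list, in which all genes share the same libraries. Against genes of 0.5 to 2 times their own length, 9 of the 10 had more sites than the median of the genes with a site, which lay between 7 and 10. STAG1, with 7 sites against a median of 7.5, was the exception.

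**Figure D2:**
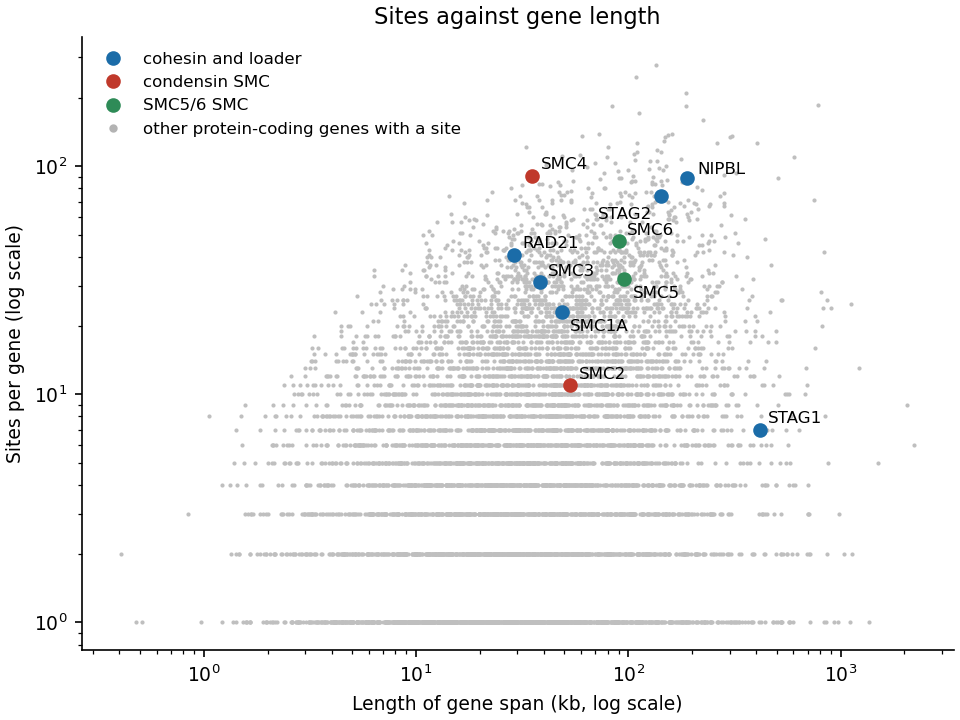
Sites per gene against the length of the gene span, both on log scales, for protein-coding genes with a site (grey) and the 10 genes (colours by complex). SMC4 lies near the upper edge for its length of 35.3 kb, and STAG1, with 7 sites in 416 kb, in the lower right.

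SMC4, whose protein pairs with SMC2 in both condensin complexes, spans chr3:160399650-160434953 on the plus strand. Only 49 protein-coding genes had more sites, and of 6952 genes of 0.5 to 2 times its length 8 had more. Its 91 sites formed 47 clusters when neighbours at most 60 nt apart were linked. They lay in 4 blocks separated by more than 2 kb without a site. The first block ran from 0.111 to 5.07 kb after the gene start with 27 sites, and the largest from 11.8 to 21.1 kb with 40 sites. The fullest cluster of this block, chr3:160414312-160414393, held 5 sites with gaps of 6, 25, 9 and 37 nt. Another 15 sites lay between 23.4 and 26.4 kb and the last 9 between 31.8 and 34.0 kb. SMC4 was also the gene with the earliest site, 0.314% of the way along its span, and 53 of its sites lay before the midpoint of the gene and 38 after it.

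The first block of SMC4 ended at the miRNA genes MIR15B and MIR16-2, which lie inside SMC4 on the same strand. Their mature products repress cell cycle and survival genes, and miR-15b-5p and miR-16-5p share the seed AGCAGCA. The sequences are from RefSeq (GRCh38.p14) and are shown because the sites lie directly at the hairpins. In the hairpins the capitals mark the mature arms, and in the mature miRNAs the seed (bases 2 to 8). MIR15B lies at chr3:160404588-160404685 and MIR16-2 at chr3:160404745-160404825.
MIR15B hairpin: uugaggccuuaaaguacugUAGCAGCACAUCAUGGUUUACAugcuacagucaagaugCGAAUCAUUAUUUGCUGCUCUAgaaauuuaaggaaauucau
MIR16-2 hairpin: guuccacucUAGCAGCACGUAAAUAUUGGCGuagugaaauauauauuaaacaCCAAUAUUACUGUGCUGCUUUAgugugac
miR-15b-5p: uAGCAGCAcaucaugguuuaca
miR-16-5p: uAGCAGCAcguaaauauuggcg

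Upstream of MIR15B, site centres lay 95, 40, 34 and 1 nt before its first base, and the 5 nt of the nearest site covered the first 2 bases of the hairpin. The next site lay between the hairpins, 33 nt after the end of MIR15B and 27 nt before the start of MIR16-2. No site centre fell inside either hairpin. After MIR16-2 the RNA was free of sites for 6671 nt. Within 100 nt of MIR15B there were thus 5 sites, and within 100 nt of MIR16-2 there was 1. In the list as a whole, 291 hairpins lay inside, and on the strand of, a protein-coding gene with at least 5 sites. A site within 100 nt was found for 57 of them (19.6%), and at least 5 sites for 3 (1.03%), MIR15B among them. Those genes were not matched to SMC4 for density of sites, and the first block of SMC4 held 27 sites in 4.96 kb.

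**Figure D3:**
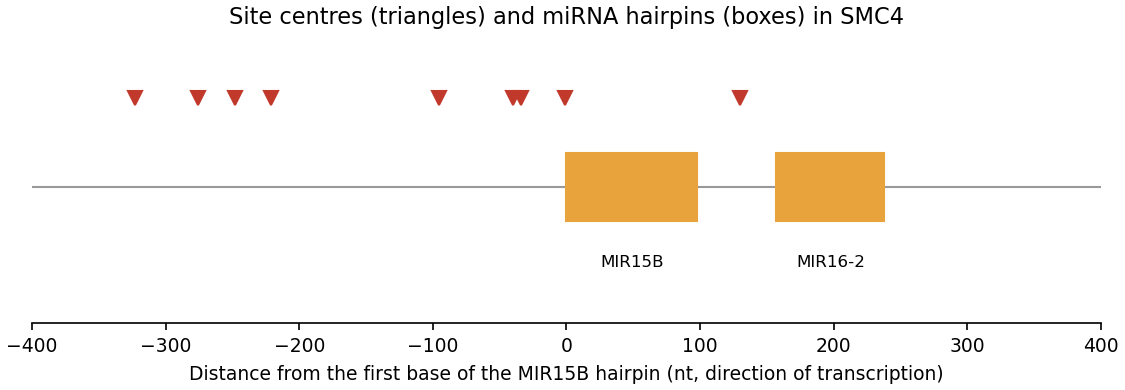
Site centres (triangles) and the MIR15B and MIR16-2 hairpins (boxes) in SMC4, by distance from the first base of MIR15B in the direction of transcription. Sites lead up to MIR15B, 1 lies between the hairpins, and none lies inside them or after MIR16-2 in the stretch shown.

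SMC2, the partner of SMC4, had far fewer sites. It spans chr9:104088263-104141419 on the plus strand, and its 11 sites formed 7 clusters. SMC4 had 8.27 times as many sites, 6.71 times as many clusters and 12.5 times as many sites per kb. In SMC2, 8 of the 11 sites lay between 10.3 and 13.7 kb after the gene start. The fullest cluster, chr9:104100339-104100419, held 4 sites with gaps of 33, 5 and 38 nt. Single sites followed at 25.7, 27.9 and 34.8 kb, and the last 18.4 kb of the gene, 34.5% of its span, held no site.

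Of the cohesin ATPases, SMC1A spans chrX:53374149-53422728 on the minus strand and SMC3 spans chr10:110567695-110606048 on the plus strand. They had 23 and 31 sites, and their intervals overlapped. In SMC1A, 21 of the 23 sites lay before the midpoint of the gene, in 6 blocks between 7.498 and 22.99 kb after the start. A stretch of 19.5 kb without a site followed, 40.2% of the gene, and the remaining 2 sites lay 5 nt apart at 42.5 kb. In SMC3, 23 of 31 sites lay before the midpoint. Between 9.67 and 16.5 kb it had 18 of its sites, and it had only 8 in the rest of the gene after that stretch. Their fullest clusters held 4 sites each, at chrX:53399739-53399789 in SMC1A with gaps of 5, 27 and 14 nt and at chr10:110575286-110575325 in SMC3 with gaps of 9, 5 and 21 nt. Both genes carried most of their sites in the part transcribed earlier.

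SMC1A also hosts a miRNA gene, MIR6857, at chrX:53405673-53405765 on the same strand, and 1 site lay inside this hairpin. It is printed from RefSeq (GRCh38.p14) because it shows the letters under a site, which the capitals mark.
MIR6857 hairpin: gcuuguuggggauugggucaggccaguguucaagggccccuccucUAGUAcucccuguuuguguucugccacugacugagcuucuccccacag
The site covered bases 46 to 50 of the hairpin, counted from its 5′ end, between miR-6857-5p (bases 6 to 27) and miR-6857-3p (bases 73 to 93). The hairpin ends in the letters CAG, as 12.4% of the 1562 hairpins in the table do. The motif CUNAC, searched on the hairpin strand only because a branch point often lies in such letters, occurred once, as CUGAC at bases 72 to 76. The motif was present in 25.2% of all hairpins. Among the 291 hairpins inside genes with at least 5 sites, 30 (10.3%) had a site centre inside.

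RAD21 spans chr8:116845934-116874776, and all of its 41 sites lay on the minus strand, which was taken as its strand. It was the shortest of the 10 genes, at 28.8 kb, and the next densest after SMC4. Only 2 sites lay early, at 8 and 8.27 kb after the start. The remaining 39 formed a single block from 12.8 to 27.1 kb, with no gap of over 2 kb. Its clusters were small, with at most 3 sites, and its clusters followed each other at a median distance of 305 nt, against 769 nt over all protein-coding genes. Of the 41 sites, 7 also lay within LOC112268030, a non-coding RNA gene annotated over the end of RAD21. Its strand was not used here, so those 7 sites could be of either RNA.

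The alternative subunits STAG1 and STAG2 differed most. STAG1 spans chr3:136336236-136752378 on the minus strand and STAG2 spans chrX:123960560-124102656 on the plus strand. STAG2 had 10.6 times as many sites as STAG1, 12.5 times as many clusters and 30.96 times as many sites per kb. The 7 sites of STAG1 lay in 4 clusters, with the fullest, chr3:136422626-136422668, holding 3 sites 5 and 33 nt apart. The other sites of STAG1 were a pair 15 nt apart at 249.5 kb after the start and single sites at 252.0 and 274.9 kb. STAG2 had 74 sites in 50 clusters, spread over 17 blocks from 60.8 kb to 140.03 kb after its start. The fullest block of STAG2 held 13 sites from 86.7 to 90.8 kb, and its fullest cluster, chrX:124022476-124022524, held 4 sites with gaps of 20, 18 and 6 nt. Only 95 protein-coding genes had more sites than STAG2, whereas 3497 had more than STAG1. Whether STAG1 RNA was rarer than STAG2 RNA in these cells was not tested.

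NIPBL spans chr5:36876769-37066413 on the plus strand, and 52 protein-coding genes had more sites than its 89. The sites formed 54 clusters in 18 blocks. The fullest blocks held 12 sites from 124.0 to 126.7 kb after the start and 10 sites from 147.8 to 151.2 kb. The fullest cluster, chr5:37006303-37006354, packed 5 sites into 52 nt with gaps of 7, 12, 9 and 19 nt. Despite this number, NIPBL was no denser per kb than SMC1A, with 0.469 against 0.473 sites per kb.

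SMC5 and SMC6 resembled each other in number but not in placement. SMC5 spans chr9:70258978-70354873 on the plus strand with 32 sites, and SMC6 spans chr2:17663812-17753810 on the minus strand with 47, and their intervals overlapped. SMC5 had 28 of its 32 sites after the midpoint, and 12 (37.5%) in the last 10% of the gene, the highest such share of the 10 genes. Its fullest cluster, chr9:70344081-70344134, held 5 sites with gaps of 8, 11, 19 and 11 nt. SMC6 had 30 of 47 sites before the midpoint, starting 0.682 kb after the gene start, and its sites were spread over 13 blocks against 8 in SMC5. Its fullest cluster, chr2:17745959-17746006, held 4 sites with gaps of 6, 26 and 11 nt. Its densest kilobase, chr2:17745869-17746850, held 9 sites, as many as the densest kilobase of SMC4. At least 9 sites in 1 kb occurred in 9.65% of genes with a site.

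Long starts without sites were common to the largest genes. The first site lay 249.5 kb after the start in STAG1 (59.97% of the gene), 76.8 kb in NIPBL (40.5%) and 60.8 kb in STAG2 (42.8%). These 3 are the longest of the 10 genes, and in each the longest stretch without a site was the one at the start. RAD21 was the fourth such gene, with 8 kb (27.7%). A count of 4 of 10 genes is near the background, since 46.4% of the 4630 genes with 5 or more sites had their longest empty stretch at the start. In SMC3, SMC4 and SMC6 the first site lay within 3.51% of the start. Exons and introns were not distinguished here, and a transcript start used in K562 cells can lie inside the RefSeq span.

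**Figure D4:**
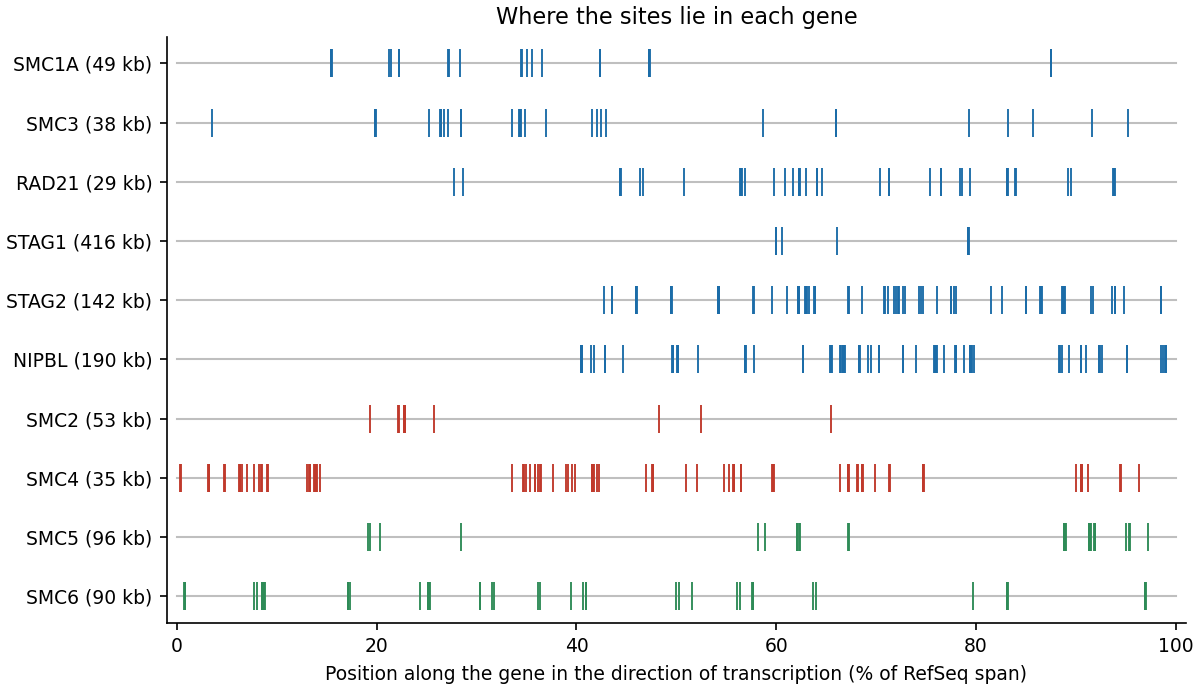
Each tick is 1 SF3B1 site, placed by its position along the gene span in the direction of transcription, with the length of the gene beside its name. STAG1, STAG2 and NIPBL have no site in at least the first 40.5% of the gene, while SMC4 and SMC6 have sites within the first 0.758%.

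Summed over the 10 genes, the shares of sites after the midpoint and in the last 10% were close to those over all protein-coding genes. After the midpoint lay 273 of 446 sites, 61.2% (95% Wilson interval 56.6% to 65.6%), against 63.6% over all protein-coding genes with at least 5 sites. The last 10% of the genes held 55 sites, 12.3% (9.60% to 15.7%), against 13.4%. The first 10% held 31 sites, 6.95%, against 4.48%, of which 18 were in SMC4 and 12 in SMC6. Without SMC4 the share in the first 10% was 3.66%. The sum hid opposite patterns. STAG1, STAG2, NIPBL, RAD21 and SMC5 had from 82.9% to 100% of their sites after the midpoint, and SMC1A, SMC2, SMC3, SMC4 and SMC6 from 8.70% to 41.8%. Having more sites after the midpoint, as 5 of the 10 genes did, was seen in 66.2% of all genes with at least 5 sites.

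Within the genes, some sites lay in close pairs, counted over spans chosen with earlier results of this list known. An excess of nearer pairs over farther ones is therefore no independent result. The 446 sites formed 272 clusters, of which 169 (62.1%, 95% Wilson interval 56.2% to 67.7%) were single sites, against 63.2% over all protein-coding genes. Sites 25 to 45 nt apart made 124 pairs, and sites 46 to 66 nt apart made 25, a ratio of 4.96 (95% Wilson interval 3.24 to 7.60, treating pairs as independent). Over all protein-coding genes the ratio was 3.59, inside that interval but outside the interval without SMC4, which is given below. All 10 genes had more pairs at 25 to 45 nt than at 46 to 66 nt, as did 78.9% of protein-coding genes with at least 5 sites. That share is not matched for number of sites, since 9 of the 10 genes had at least 10. In genes with few sites, equal numbers of both pairs counted against it. NIPBL had 29 pairs against 3, STAG2 had 17 against 1, RAD21 and SMC6 had 10 against 1 each, and SMC3 had 6 against 0. SMC5 had 9 against 3, SMC1A had 7 against 1, SMC2 had 4 against 1 and STAG1 had 2 against 0.

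SMC4 had the fewest nearer pairs for each farther pair, followed by SMC5. SMC4 supplied 30 of the 124 nearer pairs but 14 of the 25 pairs at 46 to 66 nt. The ratio of the other 9 genes was therefore 8.55 (Wilson interval 4.62 to 15.8, treating pairs as independent). That interval lay above the ratio of 3.59 over all protein-coding genes, so the overlap with 3.59 depended on SMC4. With NIPBL, RAD21 or STAG1 left out instead, the interval still included 3.59. The difference between SMC4 and the other genes was not tested, since pairs that share a site are not independent. Its cluster just upstream of MIR15B, with gaps of 55, 6 and 33 nt, was 99 nt wide. The one before it, chr3:160404263-160404369 with gaps of 47, 28 and 27 nt, was 107 nt wide. The other SMC4 clusters of at least 4 sites were 52, 56, 62 and 82 nt wide. Such clusters were 41 to 52 nt wide in NIPBL, 54 nt in SMC5 and 81 nt in SMC2. In SMC3, SMC6, STAG2 and SMC1A they were 40, 48, 49 and 51 nt wide. Their widths over all protein-coding genes were not counted. Of the SMC4 clusters 48.9% were single sites, within the range of 46.2% in SMC1A to 77.3% in SMC3, and its clusters followed one another at a median distance of 268 nt.

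Some clusters split into exactly 2 elements whose means lay 25 to 45 nt apart, and these were called paired footprints. The 10 genes had 55 of them, 12.3 per 100 sites, against 11.1 per 100 sites over all protein-coding genes. Their median spacing was 34.5 nt (quartiles 31 and 37 nt), against 36 nt (32 and 39.5 nt). NIPBL had the most, 14, followed by SMC4 with 10, STAG2 with 9 and RAD21 with 7, while SMC2 had 0. The median spacing within a gene ran from 31 nt in SMC6 to 37 nt in SMC1A. Counted over the 10 genes, upstream elements had 82 sites and downstream ones 67, against 13795 and 13207 over all protein-coding genes. The difference was not tested. In NIPBL the numbers were 25 upstream and 18 downstream, and in SMC4 they were 11 and 13.

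**Figure D5:**
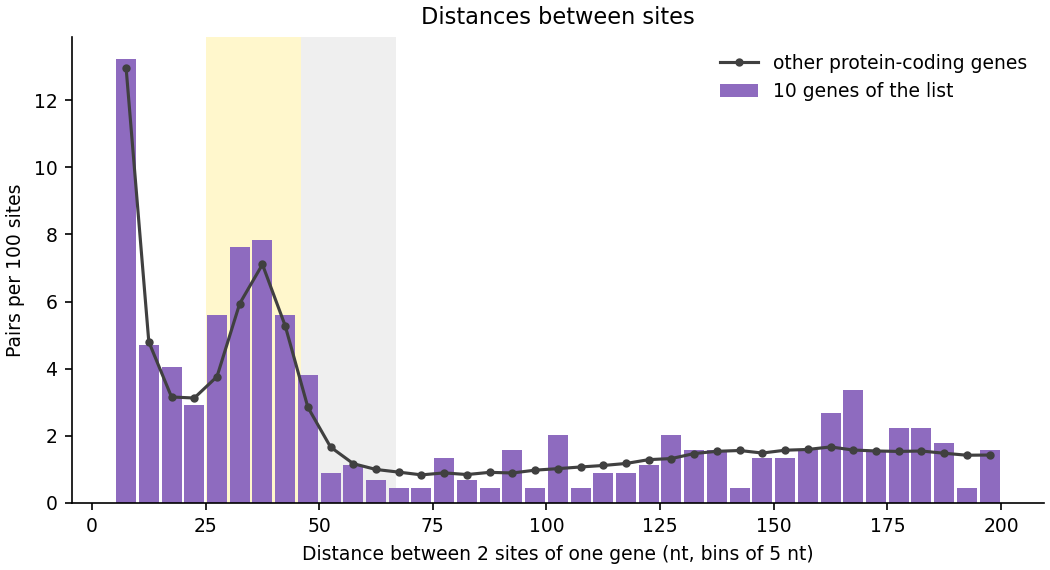
Distances between 2 sites of one gene in bins of 5 nt, as pairs per 100 sites, for the 10 genes (bars) and the other protein-coding genes (line). Yellow marks 25 to 45 nt, where the 10 genes have 124 pairs, and grey marks 46 to 66 nt, where they have 25.

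A longer spacing was counted in the same way. Sites 140 to 180 nt apart made 66 pairs and sites 60 to 100 nt apart made 28, a ratio of 2.36, against 1.72 over all protein-coding genes. No interval was calculated for this ratio, and its difference from 1.72 was not tested. The share of all genes with more of the longer pairs was not counted, so the numbers per gene have no background beside them. SMC4 had 23 of the former and 14 of the latter. In NIPBL the counts were 12 and 3, in SMC6 9 and 1, in SMC5 7 and 1, and in SMC3 6 and 0. RAD21 had 4 and 2, and STAG2 had 5 and 6. SMC1A, SMC2 and STAG1 had 0 pairs at 140 to 180 nt.

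Genes whose proteins work with these rings were examined as a list of 30. Of them, 22 had at least 1 site, against 38.0% of all protein-coding genes, and 14 had at least 10, against 14.8%. The median over the genes with a site was 14.5, against 7 over protein-coding genes with a site. The counts for parts of the list below rest on few genes and are read against the same shares. The condensin subunits beyond the ATPases had the largest total of these parts, 223 sites, with a site in all 6 genes and at least 10 sites in 5. NCAPG2 of condensin II had 88 sites, NCAPG of condensin I had 45 and NCAPD3 of condensin II had 38. SMC2, with 11 sites, therefore had fewer than SMC4 and each of these 3 partners, which had the most sites of the 6. The lowest of the 6 had 5 sites, fewer than SMC2.

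Of the 5 factors that load or release cohesin, 4 had at least 10 sites. PDS5A, which binds the ring and regulates its release, had 59 sites, while HDAC8, the deacetylase of SMC3, had 0 in 243 kb. Of genes of 0.5 to 2 times the length of HDAC8, 42.4% had a site. SMCHD1, a non-canonical SMC protein that acts on the inactive X chromosome, had the most sites of the list, 134, more than any of the 10 genes. The boundary factor CTCF, which stops cohesin on DNA, had 2 sites. All 4 meiotic cohesin genes, SMC1B, STAG3, REC8 and RAD21L1, had 0 sites on their strand. Among genes of 0.5 to 2 times their lengths, from 31.6% (REC8) to 52.0% (SMC1B) had a site. Among the 7 partners of SMC5 and SMC6, 4 had a site, against 38.0% of all protein-coding genes, and NSMCE1, NSMCE3 and EID3 had 0. EID3 spans 1.47 kb, and 8.26% of genes of 0.5 to 2 times its length had a site. For the lengths of NSMCE1 and NSMCE3 these shares were 50.4% and 24.4%. Absence of sites and scarcity of the RNA cannot be told apart in this list.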

How the data were processed

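The deposited BED list holds SF3B1 sites of 5 nt which, per the file headers, are merged and were found in every replicate of either condition. Its score column was deposited by the authors as 0 throughout and was not used. Region numbers, which some neighbouring sites share, were used for 1 alternative. The submitters' processing notes name FastQC 0.11.8, STAR 2.7.3a and 2.6.1b, UMI-tools 1.0.0, bedtools 2.27.1 and GRCh38 (p10 and p12), with no role for each. The site caller is not given in the sources used here.

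Positions were made 1-based and matched to RefSeq gene spans of GRCh38.p14. Strands came from the RefSeq promoter table for 15842 of 20050 protein-coding genes and otherwise, as for RAD21, from the strand with more sites. Where both were known they were equal in 96.7% of genes. Every gene containing a site was counted.

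The members, lists and spans were chosen with earlier results of these data known. The blocks, densest kilobases, midpoint counts, empty stretches, hairpin counts and the CUNAC search were chosen after their values were seen. All 10 genes were named. Of the 30 further genes, the 5 with the most sites and those with 0 were to be named; CTCF was added after its value was seen. Some marker genes of the fixed list are not reported here. The planned comparisons with splice sites and protein length were not made, since exons and proteins were not used here. Counting procedures were tested on simulated data with 200 genes, and all 200 were recovered. The simulated sites were lone pairs at a fixed spacing. Larger clusters, blocks, hairpin distances, bins and midpoint counts were not tested in this way. Python 3.11.15, NumPy 2.4.6, pandas 2.3.3, SciPy 1.17.1 and matplotlib 3.10.9 were used.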

Additional observations from a re-analysis of the deposited data

How the results depend on the processing

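Of 125 recalculations of 17 results, 121 stayed within the set limits: a factor of 1.5 for counts, the 95% interval for the share and the ratio, and 0.1 for rho. They counted either strand, 1 site per region number, merged touching sites, the first base as the position, only sites in 1 protein-coding gene, other minimums, spans and linking distances, or left out SMC4. The strand with more sites for every gene and the omission of NIPBL (ratio 4.32) were chosen after seeing the data. Many of the 121 could not have moved, so their number is no measure of stability. The 10 genes had 0 sites on the opposite strand and none in a second protein-coding gene. Leaving out SMC4 cannot alter the count of another gene, and taking the first base leaves the distances between sites unchanged. The other 4 recalculations moved. Taking the last 20% of the gene gave 20.6% of sites, since more of the gene was counted. Without SMC4, pairs 25 to 45 nt apart outnumbered those 46 to 66 nt apart by a ratio of 8.55. Spearman's rho between length and sites turned from -0.13 to 0.13 without SMC4 and to 0.20 with genes of at least 10 sites only, which left out STAG1. The total of 446 sites ranged from 355 without SMC4 to 446. No replicate could be omitted, as their sites were merged before deposit. No paired analysis was possible because replicates have no separate columns. Alternatives for splice sites were not run, since exons were not used here. Without read numbers, depth sets an unknown limit on the detection of sites.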

Other observations

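The placement of the SMC4 sites was compared with that of 1443 other protein-coding genes with at least 20 sites, by counting sites in 20 equal bins along each gene. The highest Pearson correlations over the bins were 0.71 with BUB1B, a spindle checkpoint kinase gene with 20 sites, 0.62 with ALG13 and 0.60 with NFRKB. They describe 1 merged list, and the highest of so many values are large by selection. STAG1, the least dense gene, had too few sites for the same comparison.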
